A study of Mus musculus with 6 samples.

Results

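The genes described here belong to the unfolded protein response and the integrated stress response, and they are Atf4, Ddit3, Xbp1, Hspa5, Hsp90b1, Pdia4, Trib3, Asns, Chac1 and Fgf21. They were chosen by symbol, and each matched 1 row, so that 10 of the 34714 rows of the count table are members. The gastrocnemius (Gas) muscle, a calf muscle of mostly fast fibres, was taken from 3 WT and 3 M92KO mice, all 8 weeks old and without treatment, and RNA from each mouse was sequenced as 1 library. M92KO mice are male global knockouts of the microRNA miR-92b (C57BL/6JGpt- Mir-92bem22Cd549/Gpt), bought as a single line, and WT mice are age-matched C57BL/6 animals that the study's methods do not call littermates. The study's general animal methods describe an overnight fast before muscle was taken. The knockout acts in every tissue, and no batch or date is given in the labels. The targeted gene, Mir92b, was not analysed here, and the genotypes rest on the labels.

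The unfolded protein response is set off when unfolded proteins gather in the endoplasmic reticulum (ER). The sensors IRE1, PERK and ATF6 then raise the transcription factors XBP1, ATF4 and cleaved ATF6, which switch on ER chaperones, protein disulfide isomerases and ER-associated degradation. PERK also phosphorylates the translation factor eIF2, as do the kinases that sense amino acid shortage, double-stranded RNA and haem shortage, and this shared arm, the integrated stress response, raises ATF4 and then CHOP (the product of Ddit3). In skeletal muscle both responses are known to be engaged by exercise, disuse and mitochondrial disorders.

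The DNA elements through which these factors act were looked for in the promoters of the members, 250 bases before to 50 bases after each RefSeq start (build GRCm38.p6, 10 of 10 members matched). The ER stress response element, written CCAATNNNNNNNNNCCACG and searched on both strands, is bound by ATF6 together with NF-Y, and 39 of 32851 mouse promoters held it (0.119%). Among the members it was present in the promoters of the chaperone genes Hspa5 and Hsp90b1, which are shown in the direction of the gene with the fixed letters of the element in capitals. In the proximal copy of Hsp90b1 the element reads on the opposite strand. The Hspa5 element lies 65 to 47 bases before the RefSeq start, inside the GENCODE span of the gene.
Hspa5 promoter, chr2:34772020-34772048, plus strand: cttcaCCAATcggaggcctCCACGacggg
Hsp90b1 promoter, distal copy, chr10:86705633-86705661, minus strand: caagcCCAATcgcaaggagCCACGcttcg
Hsp90b1 promoter, proximal copy, chr10:86705528-86705556, minus strand: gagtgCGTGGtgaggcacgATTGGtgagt

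A core of the element bound by ATF4 and its C/EBP partners, TGATGNAA, was searched in the same way and was held by 1304 of 32851 promoters (3.969%). It was present in 4 members, Asns, Chac1, Fgf21 and Trib3, and 3 of these stretches are shown because they belong to textbook targets of ATF4 whose levels are given below. In Asns the element lies 23 to 16 bases before the RefSeq start, in Chac1 193 to 186 bases before it and in Fgf21 139 to 132 bases before it. The Asns element falls inside the first exon of a GENCODE transcript that begins farther upstream. The Trib3 match lay after the RefSeq start, though upstream of the GENCODE span of the gene, and is not shown. The capitals are the fixed letters again, and in Chac1 and Fgf21 they spell the element as it reads on the opposite strand. A match is a description of the letters in the window, and no binding was measured.
Asns promoter, chr6:7693215-7693242, minus strand: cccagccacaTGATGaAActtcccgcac
Chac1 promoter, chr2:119351039-119351066, plus strand: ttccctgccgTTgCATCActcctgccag
Fgf21 promoter, chr7:45615612-45615639, minus strand: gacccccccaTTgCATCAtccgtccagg

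The mature strands of miR-92b are shown because the knockout removes them, with the seed (bases 2 to 8) in capitals, as RefSeq gives them on chromosome 3.
mmu-miR-92b-3p, chr3:89227126-89227147, minus strand: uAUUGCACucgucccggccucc
mmu-miR-92b-5p, chr3:89227165-89227188, minus strand: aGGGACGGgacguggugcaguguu

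Transcripts of the members in GENCODE were searched for the complement of bases 2 to 7 of each seed. For miR-92b-3p the 6 letters TGCAAT, held by 30.9% of 58797 protein-coding transcripts, occurred in 1 member, at the end of the 3′-UTR of Xbp1. For miR-92b-5p the letters CGTCCC, held by 20.1% of transcripts, occurred in Atf4, Chac1, Ddit3 and Trib3, and none of these lay in a 3′-UTR. The match in the coding sequence of Trib3 was the 8-letter form, CCGTCCCA, held by 1.87% of transcripts.
Xbp1 3′-UTR, chr11:5525856-5525885, plus strand: taaaactaccctTGCAATtaaaaaaaaagc
Trib3 coding sequence, chr2:152339918-152339947, minus strand: cagcatgtggccCGTCCCacagaggtcctg

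Values are CPM, a gene's counts scaled to a common library size after TMM normalization, and a fold change is M92KO over WT from edgeR's quasi-likelihood fit. The WT libraries totalled 38246649 to 48209846 counts each, the M92KO libraries 33160508 to 37019640, and 3 counts, the limit that a count of 0 allows, equalled 0.0629 to 0.0916 CPM. Of all genes, 15788 passed the filter on low counts and were tested, and 9 of the 10 members were among them. No gene passed an adjusted p of 0.05 in edgeR (0%), while 1955 genes had an unadjusted p under 0.05 (12.4%), the threshold used in the study. DESeq2 called 322 of 13335 genes at an adjusted p of 0.05 (2.41%). In 2898 genes (18.4%) the values of the groups did not overlap, and an exact permutation test of 3 against 3 mice cannot go below 0.1. Where nothing more than separate mice is known, p-values measure the spread between these samples. Muscle fibre genes such as Ckm and Acta1, 8 markers in all, summed to 109906 to 121786 CPM in WT and 111759 to 118336 CPM in M92KO libraries. The libraries thus carried skeletal muscle RNA, and these markers do not tell Gas from other fast muscles.

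Of the 9 members tested, none passed an adjusted p of 0.05 in edgeR (background 0%) or in DESeq2 (background 2.41%), where 4 had an unadjusted p under 0.05 (background 10.9%). By the unadjusted threshold, 4 of the 9 differed, with 3 higher in M92KO muscle (Xbp1, Hspa5 and Ddit3; background 5.47%) and 1 lower (Asns; background 6.92%). The edgeR count of 4 was 2 without WT replicate 1, WT replicate 3 or M92KO replicate 2, and 1 without WT replicate 2. The groups did not overlap in 3 members, Xbp1 and Hspa5 on the higher side (background 8.77%) and Asns on the lower side (background 9.58%). The median log2 fold change over the 9 members was 0.18, beside 0.00 over all genes tested, and 7 of the 9 fold changes were above 0. The sizes were modest, between -0.55 and 0.57 on the log2 scale.

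**Figure D1:**
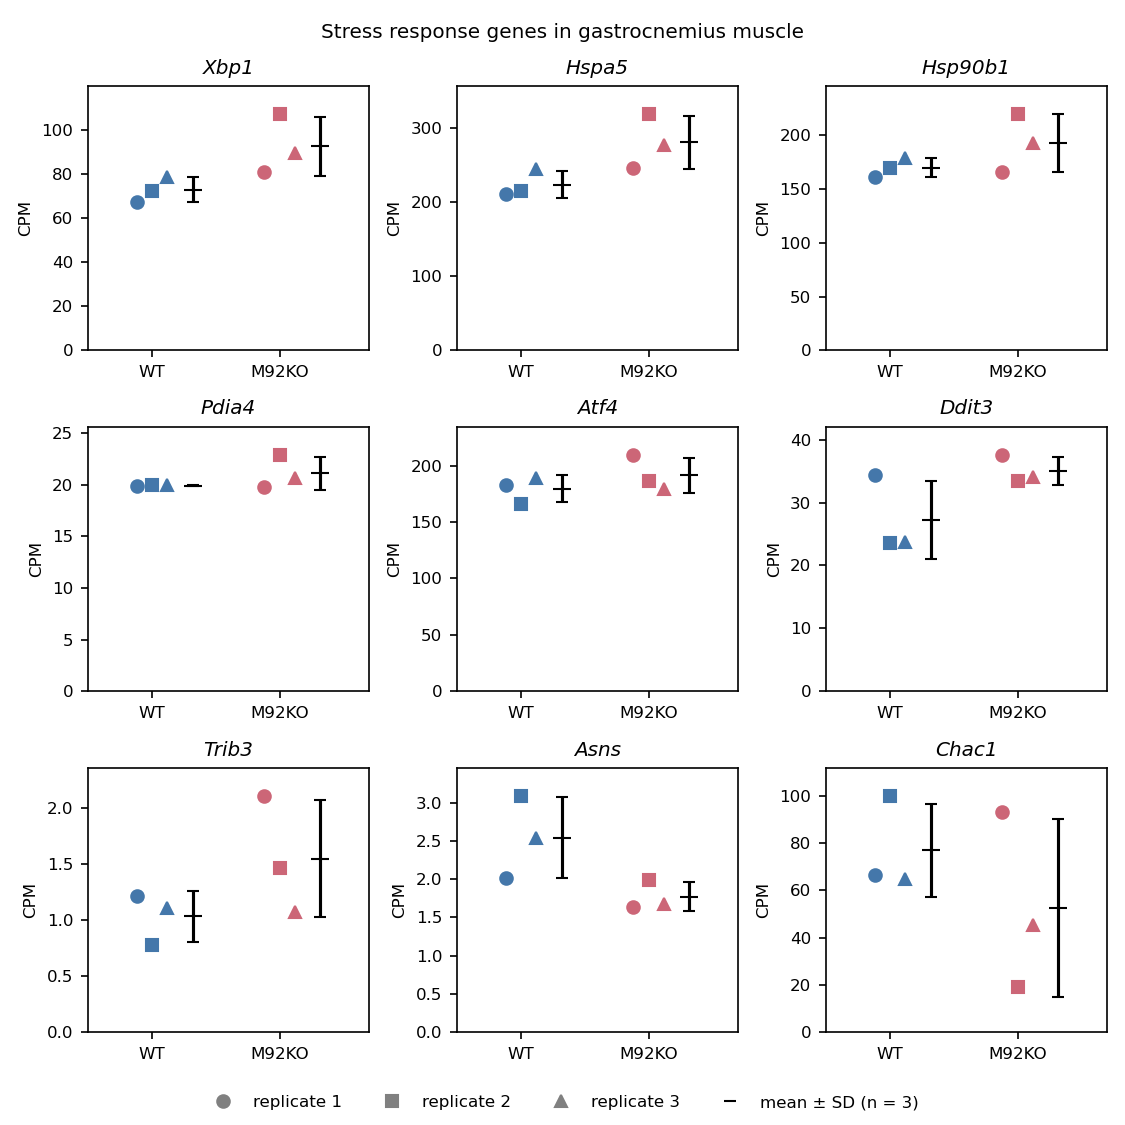
CPM of the 9 tested members in each of the 3 WT and 3 M92KO libraries, with each panel's y axis starting at 0, a marker shape for each replicate number and bars for the mean ± SD (n = 3). The lowest M92KO library lies just above the highest WT library in the Xbp1 panel (80.9 against 78.6 CPM) and in the Hspa5 panel (247 against 245 CPM), whereas the Chac1 panel spans 19.0 to 93.1 CPM within M92KO.

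Xbp1 (chr11:5520659-5525893, plus strand, build GRCm38 as in all gene positions below) encodes the transcription factor that IRE1 activates. It was measured at 67.3, 72.1 and 78.6 CPM in WT replicates 1 to 3 and at 80.9, 107 and 89.4 CPM in M92KO replicates 1 to 3. All M92KO values lay above all WT values, although M92KO replicate 1 exceeded WT replicate 3 by little. The fold was 1.27 (log2 0.35 ± 0.11 SE, adjusted p = 0.279 in edgeR and 0.109 in DESeq2). Xbp1 met the unadjusted threshold in 5 of the 6 fits that left out 1 library, the exception being WT replicate 1 (log2 0.29). With GC and length trends removed from each library, the groups overlapped, at a log2 fold change of 0.33.

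IRE1 activates Xbp1 by cutting a short intron out of its mRNA in the cytoplasm. That intron is 26 bases long and is shown because its removal lengthens the open reading frame from 267 to 371 codons.
Xbp1 intron cut by IRE1, chr11:5524282-5524307, plus strand: cactcagactatgtgcacctctgcag

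Counts per gene do not tell the spliced from the unspliced mRNA, so that the level of Xbp1 here is the sum of both forms. Ern1, which encodes IRE1, was measured at 13.2, 9.97 and 10.4 CPM in WT and at 7.43, 14.3 and 11.9 CPM in M92KO muscle. The M92KO libraries lay both below and above the WT range, and the log2 fold change was 0.00 ± 0.22 SE.

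Hspa5 (chr2:34771970-34777547, plus strand) encodes BiP, the main chaperone of the ER lumen and the protein that holds the sensors inactive. Its values were 211, 215 and 245 CPM in WT and 247, 318 and 277 CPM in M92KO muscle. The M92KO values were all higher than the WT values, with the least gap between WT replicate 3 and M92KO replicate 1. The fold was 1.26 (log2 0.33 ± 0.11 SE, adjusted p = 0.281 in edgeR and 0.108 in DESeq2). Hspa5 met the unadjusted threshold in 3 of the 6 fits that left out 1 library and missed it without WT replicate 1 (log2 0.29), WT replicate 2 (0.30) or M92KO replicate 2 (0.23). When genes with low counts were kept, the normalization moved enough for these nearest values to cross.

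Hsp90b1 (chr10:86690209-86705509, minus strand) encodes GRP94, the HSP90 of the ER. It was at 161, 169 and 179 CPM in WT and at 166, 219 and 192 CPM in M92KO muscle. M92KO replicate 1 lay inside the WT range and the other M92KO libraries lay above it. The log2 fold change was 0.18 ± 0.10 SE (edgeR, adjusted p = 0.534), and without M92KO replicate 1 it was 0.28, with groups that no longer overlapped, as in 37.3% of all genes in that setting. Exons of 1810014B01Rik on the opposite strand cover 415 of its 4032 exonic bases, and whether the counting used strand is not given in the sources used here. On the same strand, exons of Gm25745 and Gm15344 cover 133 and 84 of these bases.

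Pdia4 (chr6:47796141-47813430, minus strand) encodes a protein disulfide isomerase that helps proteins to form disulfide bonds. The WT libraries held 19.8, 19.9 and 19.9 CPM, the closest replicates of any member, and the M92KO libraries held 19.8, 22.8 and 20.7 CPM. The groups overlapped through M92KO replicate 1, and the log2 fold change was 0.08 ± 0.08 SE (edgeR, adjusted p = 0.733).

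Xbp1, Hspa5, Hsp90b1 and Pdia4 shared the order of the M92KO libraries. Replicate 2 was highest, replicate 3 came next and replicate 1 was lowest in each of them. Over all 9 members tested, M92KO replicate 2 was the highest M92KO library in 5, where it was so in 30.6% of all genes tested. M92KO replicate 1 deviated from the mean of the WT libraries by between -0.03 and 0.16 on the log2 scale, and M92KO replicate 2 by between 0.20 and 0.56.

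Atf4 (chr15:80255184-80257541, plus strand) encodes the central transcription factor of the integrated stress response, which is controlled mainly through translation of its mRNA. It was at 183, 166 and 189 CPM in WT and at 209, 186 and 179 CPM in M92KO muscle. The groups overlapped, and the log2 fold change was 0.09 ± 0.08 SE (edgeR, adjusted p = 0.709). ATF4 protein was not measured by these libraries.

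Ddit3 (chr10:127290774-127296288, plus strand) encodes CHOP, a transcription factor downstream of ATF4 that is linked to cell death under long stress. WT values were 34.4, 23.6 and 23.8 CPM, and M92KO values were 37.5, 33.4 and 34.0 CPM. WT replicate 1 stood with the M92KO libraries, above 2 of them, and the other WT libraries stood below. The fold was 1.28 (log2 0.36 ± 0.14 SE, adjusted p = 0.373 in edgeR). Without WT replicate 1 the log2 fold change was 0.56 (edgeR, adjusted p = 0.139) and the groups did not overlap, as in 27.8% of all genes in that setting. Leaving out any 1 of the other libraries ended the unadjusted call, at log2 fold changes of 0.27 without WT replicate 2 or WT replicate 3, 0.31 without M92KO replicate 1, 0.39 without M92KO replicate 2 and 0.38 without M92KO replicate 3. The call was also lost with the study's steps in limma (0.40) and with GC and length trends removed (0.30). Mars, the gene of methionyl-tRNA synthetase, overlaps 68 of the 1713 exonic bases of Ddit3 from the opposite strand.

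Trib3 (chr2:152337422-152344032, minus strand) encodes a pseudokinase that CHOP and ATF4 induce and that binds ATF4 and Akt. It was among the least abundant members, with read numbers of 56, 30 and 53 in WT libraries and of 73, 48 and 39 in M92KO libraries. These counts gave 1.21, 0.777 and 1.11 CPM in WT and 2.10, 1.47 and 1.07 CPM in M92KO muscle. M92KO replicate 3 lay inside the WT range and the other M92KO libraries above it. The log2 fold change, 0.57 ± 0.30 SE, was the largest on the higher side among the members and the adjusted p was 0.494 (edgeR). It was 0.29 without M92KO replicate 1 and 0.78 without M92KO replicate 3.

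Asns (chr6:7675169-7693254, minus strand) encodes asparagine synthetase, the classical target of the amino acid arm of the integrated stress response. The WT libraries held 93, 119 and 121 of its reads and the M92KO libraries 57, 65 and 61, which gave 2.01, 3.08 and 2.54 CPM in WT and 1.64, 1.99 and 1.68 CPM in M92KO muscle. All M92KO values were below all WT values, with M92KO replicate 2 just under WT replicate 1. The fold was 0.697 (log2 -0.52 ± 0.21 SE, adjusted p = 0.374 in edgeR), opposite in direction to Xbp1, Hspa5 and Ddit3. Asns met the unadjusted threshold in 2 of the 6 fits that left out 1 library. It missed it without WT replicate 2 (log2 -0.36), WT replicate 3 (-0.52), M92KO replicate 1 (-0.47) or M92KO replicate 3 (-0.48), and with the study's steps in limma (-0.45).

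Chac1 (chr2:119351229-119354381, plus strand) encodes an enzyme that degrades glutathione and is induced by ATF4 and CHOP. Its libraries spread more widely than those of any other member. WT libraries held 66.4, 99.7 and 64.8 CPM and M92KO libraries held 93.1, 19.0 and 45.4 CPM. M92KO replicate 1 lay near the top of the WT range, and M92KO replicates 2 and 3 lay below every WT library. The log2 fold change was -0.55 ± 0.46 SE (edgeR, adjusted p = 0.688). It was -1.25 without M92KO replicate 1 (edgeR, adjusted p = 0.108) and -0.15 without M92KO replicate 2. Chac1 was lowest in the library where Xbp1, Hspa5, Hsp90b1 and Pdia4 were highest.

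Fgf21 (chr7:45613886-45615490, minus strand) encodes a secreted hormone that muscle is known to release under mitochondrial stress. It had 0 counts in all 6 libraries, which allows a level of up to 0.0629 CPM in the deepest library and 0.0916 CPM in the shallowest, and no fold was computed. Gdf15, the other hormone of muscle mitochondrial stress, was also below the filter on low counts.

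**Figure D2:**
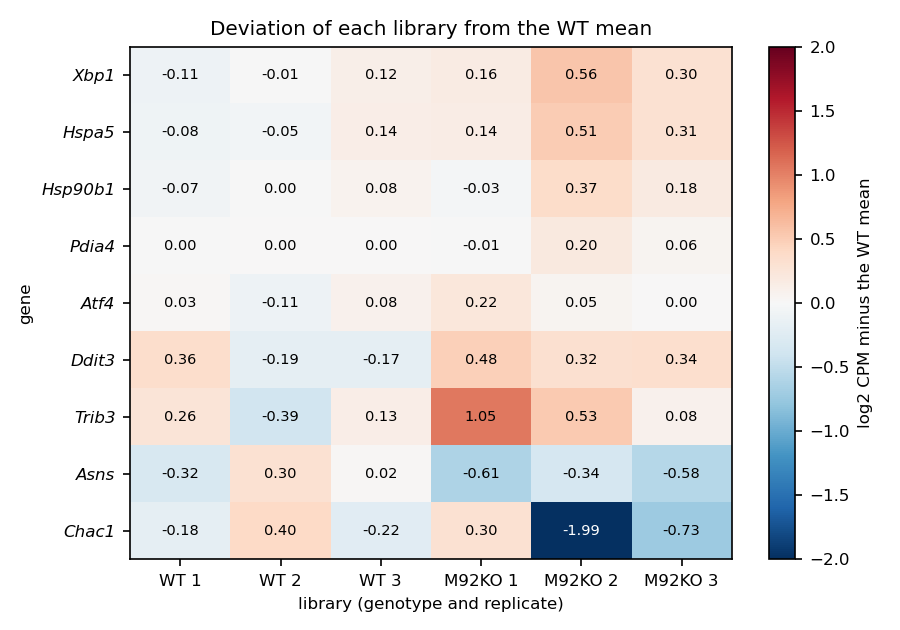
Heat map of each library's log2 CPM minus the mean log2 CPM of the 3 WT libraries for the 9 tested members, with libraries as columns, genes as rows and the colour scale from -2 to 2. M92KO replicate 2 is highest for Xbp1 (0.56) and Hspa5 (0.51) and lowest for Chac1 (-1.99), and M92KO replicate 1 is highest for Trib3 (1.05).

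The downstream genes of the integrated stress response therefore ran in both directions in the same mice. In M92KO replicate 1, Trib3 deviated from the mean of WT by 1.05, Ddit3 by 0.48, Chac1 by 0.30 and Asns by -0.61 on the log2 scale. In M92KO replicate 2 the deviations were 0.53 for Trib3, 0.32 for Ddit3, -1.99 for Chac1 and -0.34 for Asns. Asns was below the WT mean and Ddit3 above it in 3 of 3 M92KO libraries.

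Per kilobase of exon, Atf4 was the most abundant member in WT muscle, at 76.1 CPM per kb. Hspa5 followed at 52.9, Chac1 at 47.0 and Hsp90b1 at 42.0 CPM per kb. The WT libraries of Hspa5 (49.9 to 58.0) and of Hsp90b1 (39.9 to 44.3) both overlapped those of Chac1 (39.6 to 60.9), so that these neighbours were not separated. Xbp1 stood at 22.4, Ddit3 at 15.9 and Pdia4 at 8.30 CPM per kb, each range clear of the next. Asns, at 0.930 CPM per kb, and Trib3, at 0.486, were far below the chaperones, and Fgf21 was at 0.

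The ER folding machinery beyond the members was read from a list of 22 tested chaperones, cochaperones and disulfide isomerases. By the unadjusted threshold 6 of 22 were higher in M92KO muscle (background 5.47%) and 0 were lower (background 6.92%). The groups did not overlap in 8 on the higher side (background 8.77%) and 1 on the lower side (background 9.58%). The median log2 fold change was 0.11, and 19 of 22 were above 0, where 7891 of 15788 of all genes were. No gene of the list passed the adjusted threshold in edgeR, and 1, Dnajb9, passed in DESeq2.

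Dnajb9 encodes ERdj4, a cochaperone of BiP and a target of XBP1. It was at 44.5, 44.3 and 48.9 CPM in WT and at 53.5, 65.2 and 59.2 CPM in M92KO muscle, with no overlap and a log2 fold change of 0.37 ± 0.09 SE (adjusted p = 0.188 in edgeR and 0.0278 in DESeq2). P4hb, a protein disulfide isomerase, was within 182 to 183 CPM in the WT libraries and at 211, 228 and 207 CPM in M92KO muscle (log2 0.24 ± 0.06 SE, adjusted p = 0.217 in edgeR). Manf, a secreted ER stress protein, was at 22.0, 20.2 and 23.8 CPM in WT and at 24.8, 30.9 and 29.0 CPM in M92KO muscle (log2 0.36 ± 0.10 SE, adjusted p = 0.245 in edgeR). In all of these the M92KO libraries were above the WT libraries.

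M92KO replicate 2 was the highest M92KO library in 17 of the 22 genes (77.3%), and it was so in 30.6% of all genes tested. Without M92KO replicate 1 the number higher by the unadjusted threshold was 10, where 9.62% of all genes tested were, and without WT replicate 1 it was 3, where 4.16% were. M92KO replicate 2 was likewise the highest M92KO library in 7 of 7 tested fat cell markers, 6 of 8 fibroblast markers and 5 of 6 endothelial markers. It was so in 3 of 5 satellite cell, 3 of 6 Schwann cell and nerve, 2 of 4 plasma cell, 3 of 7 macrophage, 1 of 6 tendon and 0 of 5 red blood cell markers. All 6 tendon markers had fold changes below 0 (median log2 -0.54), with 3 lower by the unadjusted threshold (background 6.92%). Schwann cell and nerve markers had fold changes below 0 in 5 of 6 (median log2 -0.23), with 3 lower by that threshold (background 6.92%). Macrophage markers had fold changes below 0 in 6 of 7 (median log2 -0.14), none past that threshold. Of 5 satellite cell markers, 1 was higher (background 5.47%) and 2 were lower (background 6.92%) by that threshold. All 5 red blood cell markers had fold changes above 0 (median log2 0.66), none past that threshold. The fat cell markers had fold changes above 0 in 7 of 7, with a median log2 fold change of 0.62, none past the unadjusted threshold and sums of 315 to 364 CPM in WT and 313 to 395 CPM in M92KO muscle. All 6 endothelial markers had fold changes below 0, with a median of -0.13 and sums of 772 to 871 CPM in WT and 676 to 868 CPM in M92KO muscle. All 8 fibroblast markers had fold changes below 0, with 3 lower by the unadjusted threshold (background 6.92%). Their summed level was 1837 to 2408 CPM in WT and 1232 to 1745 CPM in M92KO muscle. Of 6 plasma cell markers 4 were tested, 1 of them with a fold change above 0 and none past the unadjusted threshold, and they summed to 12.8 to 15.9 CPM in WT and 9.77 to 13.9 CPM in M92KO muscle. The part of these cells in the chaperone levels was not tested. In whole muscle, fewer cells of a type and less RNA per cell cannot be told apart.

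Among muscle fibre markers, Myh2, the myosin of fast oxidative fibres, was at 2124, 2239 and 1612 CPM in WT and at 2018, 3575 and 4099 CPM in M92KO muscle. Myh2 was the 1 fibre marker of 8 past the unadjusted threshold (background 12.4%), and the median log2 fold change over the 8 was 0.01. The study's qPCR of fibre-type genes in Gas, Myh2 among them, found no differences between the genotypes. M92KO replicate 1 was the highest M92KO library in 5 of the 8 and M92KO replicate 2 in 0. The part of fibre type in the chaperone levels was not tested.

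**Figure D3:**
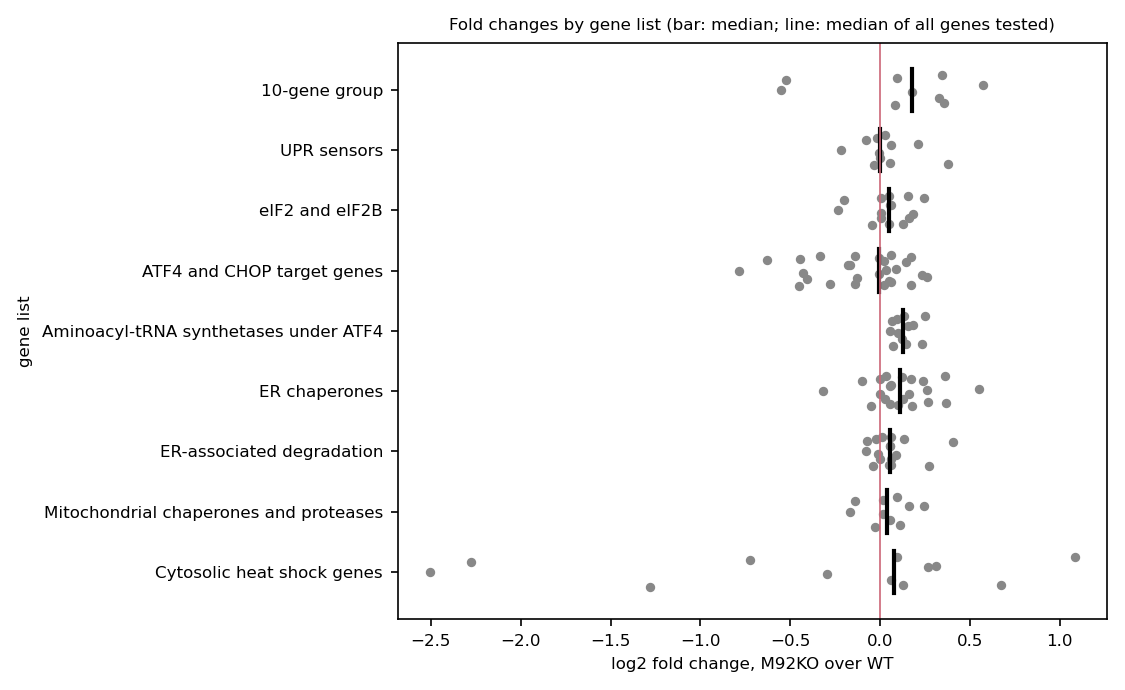
Log2 fold change (M92KO over WT, x axis) of each tested gene in the 9-member group and in the 8 pathway lists (y axis), with a black bar at each list's median and a red line at the median of all genes tested. The medians of the ER chaperones (0.11) and tRNA synthetases (0.13) lie to the right of the line, and the cytosolic heat shock genes span -2.51 to 1.08.

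Counts in the lists that follow are read against the same shares of all genes. These were 5.47% higher and 6.92% lower by the unadjusted threshold, and 8.77% higher and 9.58% lower without overlap. With 1 library left out, the unadjusted shares were 4.16%, 3.32% and 3.46% higher and 5.87%, 4.33% and 4.49% lower without WT replicates 1 to 3. Without M92KO replicates 1 to 3 they were 9.62%, 4.38% and 4.64% higher and 8.96%, 6.14% and 6.0% lower. The sensors themselves and the proteases that process ATF6 differed little as a group. Of 11 tested genes, 2 were higher by the unadjusted threshold, 0 were lower and the median log2 fold change was 0.00. Leaving out WT replicate 1, WT replicate 2 or M92KO replicate 3 brought the 2 to 1. Eif2ak3, which encodes PERK, had a log2 fold change of -0.03 ± 0.14 SE and Atf6 one of -0.01 ± 0.12 SE. Traf2, an adaptor that binds active IRE1, was at 21.2, 22.0 and 20.6 CPM in WT and at 25.1, 30.6 and 27.3 CPM in M92KO muscle (log2 0.38 ± 0.09 SE, adjusted p = 0.186 in edgeR and 0.0317 in DESeq2). Creb3, a membrane-bound transcription factor of the same kind as ATF6, had a log2 fold change of 0.21 without overlap, and its relative Creb3l1 one of -0.22 with overlap.

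ER-associated degradation, which exports misfolded proteins to the proteasome, had 2 of 17 tested genes higher, 0 lower and a median log2 fold change of 0.05. Without M92KO replicate 1, 4 were higher (background 9.62%) and 1 was lower (background 8.96%). Selenos, a selenoprotein of the export machinery, was at 21.3, 22.8 and 24.1 CPM in WT and at 32.0, 31.4 and 26.9 CPM in M92KO muscle (log2 0.41 ± 0.09 SE, adjusted p = 0.179 in edgeR and 0.0202 in DESeq2). Ube2g2, a ubiquitin-conjugating enzyme of the pathway, had a log2 fold change of 0.27 ± 0.08 SE without overlap, and Erlec1, a lectin, one of 0.13 with overlap. The XBP1 targets Edem1 and Herpud1 had log2 fold changes of 0.01 and 0.09, each with overlap.

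**Figure D4:**
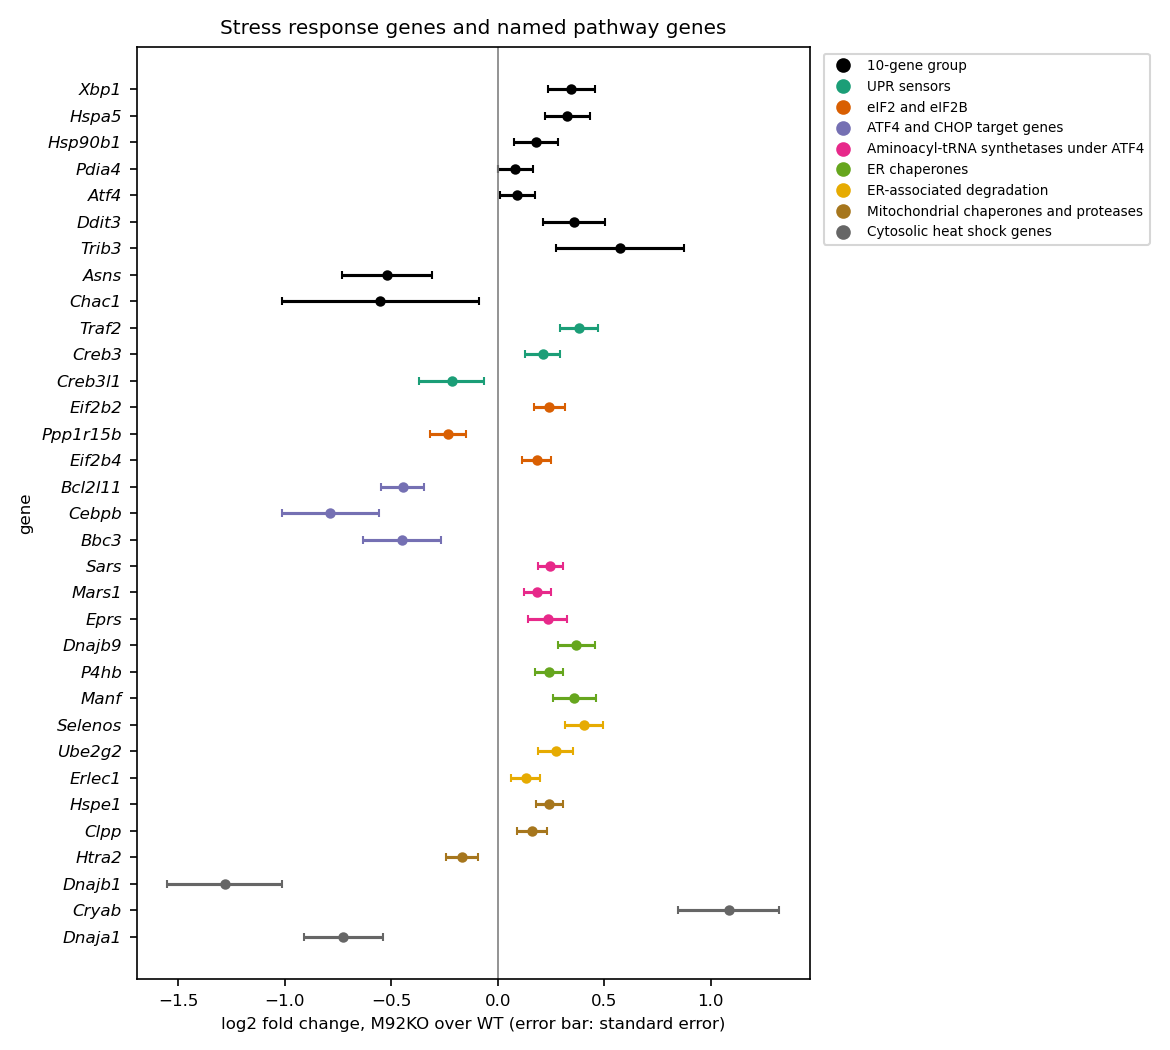
Log2 fold change (M92KO over WT, x axis) with its standard error for the 9 tested members in black and for the 3 genes with the smallest p-values in each of the 8 pathway lists in colour. Asns and Chac1 (-0.52 and -0.55) lie left of 0 and the other members right of it, while Dnajb1 (-1.28) and Cryab (1.08) lie farthest from 0.

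At the level of eIF2, 2 of 15 tested genes were higher by the unadjusted threshold and 1 was lower, and the median log2 fold change was 0.05. The 2 higher genes were 1 without WT replicate 1, WT replicate 2 or M92KO replicate 3, and 4 without M92KO replicate 1 (background 9.62%). The 1 lower gene was 0 without WT replicate 3 or M92KO replicate 3. The groups did not overlap in 5 genes on the higher side. Eif2b2 and Eif2b4, subunits of the exchange factor eIF2B, had log2 fold changes of 0.24 ± 0.07 and 0.18 ± 0.07 SE. Ppp1r15b, which encodes CReP, the constitutive partner of the eIF2 phosphatase, was at 55.5, 53.5 and 56.9 CPM in WT and at 42.0, 51.9 and 47.1 CPM in M92KO muscle (log2 -0.23 ± 0.09 SE, adjusted p = 0.336 in edgeR). Ppp1r15a, which encodes the stress-induced partner GADD34, had a log2 fold change of 0.16 ± 0.13 SE with overlap.

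Targets of ATF4 and CHOP outside the members did not share the direction of Ddit3 and Trib3. Of 27 tested genes 0 were higher by the unadjusted threshold (background 5.47%), 3 were lower (background 6.92%), and the median log2 fold change was -0.01. Bcl2l11, the gene of the death-promoting protein BIM, was at 12.6, 14.3 and 13.4 CPM in WT and at 10.7, 9.22 and 9.69 CPM in M92KO muscle (log2 -0.45 ± 0.10 SE, adjusted p = 0.179 in edgeR and 0.0260 in DESeq2). Bbc3, which encodes the related protein PUMA, had a log2 fold change of -0.45 ± 0.18 SE and did not overlap. Cebpb, a partner of ATF4 and CHOP, was at 48.2, 57.9 and 92.7 CPM in WT and at 41.6, 31.1 and 42.7 CPM in M92KO muscle (log2 -0.79 ± 0.23 SE, adjusted p = 0.255 in edgeR), and without WT replicate 3 its log2 fold change was -0.47. The genes of serine, one-carbon, proline and cysteine synthesis on this list included Psat1 at -0.14, Phgdh at 0.15, Shmt2 at 0.03, Mthfd2 at 0.06, Pycr1 at 0.17 and Cth at 0.23 on the log2 scale, all with overlapping groups.

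The aminoacyl-tRNA synthetases, which charge tRNAs and include many genes that ATF4 induces, had fold changes of the other sign from Asns. Of 12 tested genes, 12 had fold changes above 0, 4 were higher by the unadjusted threshold (background 5.47%), 0 were lower (background 6.92%) and 7 did not overlap on the higher side (background 8.77%), with a median log2 fold change of 0.13. The count of 4 was 7 without M92KO replicate 1 (background 9.62%), 1 without WT replicate 1 or WT replicate 2, and 2 without any 1 of the other libraries. Sars was at 143, 143 and 139 CPM in WT and at 167, 167 and 170 CPM in M92KO muscle (log2 0.25 ± 0.06 SE, adjusted p = 0.188 in edgeR and 0.0268 in DESeq2). Eprs had a log2 fold change of 0.24 ± 0.09 SE and Mars1 one of 0.19 ± 0.06 SE, both without overlap, and Mars1 shares the overlap with Ddit3 given above.

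In mitochondria, the chaperones and proteases that mark the mitochondrial unfolded protein response had 1 of 10 tested genes higher, 0 lower and a median log2 fold change of 0.04. Without M92KO replicate 1, 4 were higher (background 9.62%) and 1 was lower (background 8.96%), and without M92KO replicate 2, 2 were higher (background 4.38%). Hspe1, the cochaperonin HSP10, was at 60.9, 59.3 and 59.2 CPM in WT and at 74.3, 68.3 and 69.8 CPM in M92KO muscle (log2 0.24 ± 0.06 SE, adjusted p = 0.214 in edgeR). Its partner chaperonin Hspd1 had a log2 fold change of -0.03 ± 0.08 SE. The proteases Clpp and Htra2 had log2 fold changes of 0.16 and -0.17, and neither met the unadjusted threshold.

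The cytosolic heat shock genes, which answer unfolded proteins outside the ER, differed by more than the ER genes and in both directions. Of 12 tested genes 3 were higher (background 5.47%) and 4 were lower (background 6.92%) by the unadjusted threshold, and without WT replicate 3 or M92KO replicate 1 only 2 were lower. Cryab, the small heat shock protein alpha-B crystallin that protects the sarcomere, was at 580, 585 and 563 CPM in WT and at 775, 1725 and 1166 CPM in M92KO muscle. The groups did not overlap (fold 2.12, log2 1.08 ± 0.24 SE, adjusted p = 0.179 in edgeR and 0.0409 in DESeq2), and the M92KO libraries stood in the same order as for Hspa5.

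Dnajb1, an HSP40 cochaperone, was at 22.9, 21.2 and 44.6 CPM in WT and at 11.0, 11.4 and 14.0 CPM in M92KO muscle, and the groups did not overlap (log2 -1.28 ± 0.27 SE, adjusted p = 0.179 in edgeR and 0.0280 in DESeq2). Dnaja1, another HSP40, was at 91.4, 93.4 and 152 CPM in WT and at 61.2, 67.7 and 74.9 CPM in M92KO muscle (log2 -0.72 ± 0.19 SE, adjusted p = 0.214 in edgeR and 0.00588 in DESeq2). WT replicate 3 stood high in both, and without it the log2 fold changes were -0.86 and -0.45. The same library held 90.5 CPM of the inducible HSP70 gene Hspa1a, chosen after its values were seen, beside 11.0 and 11.6 CPM in the other WT libraries and 3.89 to 11.5 CPM in M92KO muscle. Hspa1a and Hspa1b are near-identical copies, and how the authors' counting split their reads is not given in the sources used here.

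**Figure D5:**
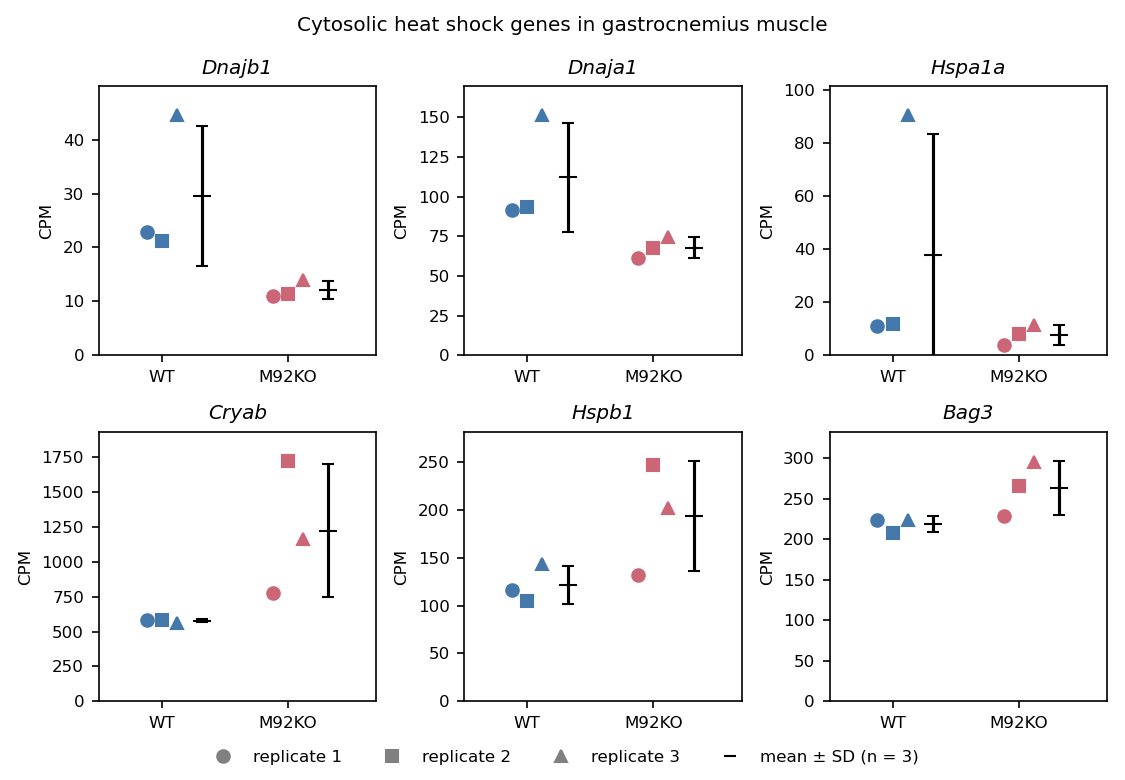
CPM of 6 cytosolic heat shock genes in each of the 3 WT and 3 M92KO libraries, with each y axis starting at 0, a marker shape for each replicate number and bars for the mean ± SD (n = 3, with the WT bar of Hspa1a running below the axis). WT replicate 3 is the highest library for Dnajb1 (44.6 CPM), Dnaja1 (152 CPM) and Hspa1a (90.5 CPM), and M92KO replicate 2 is the highest for Cryab (1725 CPM) and Hspb1 (247 CPM).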

How the data were processed

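RNA-seq libraries of Gas muscle were compared between genotypes (3 WT and 3 M92KO mice). The authors deposited unnormalized counts for 34714 gene symbols. The labels name a SMARTER kit and the builds GRCm38 and mm10, while the aligner, the counting program and the use of strand are not given in the sources used here. Groups and replicate numbers come from the labels. Counts were filtered with filterByExpr (minimum count 10, minimum total 15), normalized with TMM and compared with edgeR's quasi-likelihood test (edgeR 4.0.16, R 4.3.3) without a covariate, with Benjamini-Hochberg adjustment over the 15788 genes tested. The code was tested on simulated data. Alternatives were DESeq2's size factors and Wald test (DESeq2 1.42.0), no filter, at least 10 counts in every library, the study's own steps with limma 3.58.1, the replicate block, each library left out in turn and, chosen after seeing the data, GC and length trends removed (lowess span 0.3) and thinning to 33160508 counts. The floor of 3 counts covers counting error only. Each ± SE comes from the quasi-likelihood fit, which includes the spread between mice, and each ± SD from the 3 mice of a group. Positions and exonic lengths are from GENCODE M21 (GRCm38) and promoters and miRNAs from RefSeq (GRCm38.p6). The members and gene lists were chosen with earlier results of these data known. Besides the members, the 3 tested genes with the smallest p-values in each of 8 pathway lists are named, and other genes were named after their values were seen. Figures were drawn with matplotlib 3.10.9.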

Additional observations from a re-analysis of the deposited data

How the results depend on the processing

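The 9 members and the 24 other genes named by rule kept the sign of their fold changes under all 14 alternatives, and no member passed an adjusted p of 0.05 in any of them. The number of members with an unadjusted p under 0.05 was 4, and it was 2 with the study's own steps in limma, which include no filter on low counts. With 1 library left out it ranged from 1 to 4, being 2 without WT replicate 1, 1 without WT replicate 2, 2 without WT replicate 3 and 2 without M92KO replicate 2. The number of members whose groups did not overlap was 3, where the groups of 18.4% of all genes did not. It ranged from 3 to 6 with 1 library left out, the 6 being without M92KO replicate 1, where the share of all genes was 37.3%. Without any 1 of the other libraries that share was 24.9% to 28.8%. The members without overlap numbered 2 without a filter on low counts (14.5% of all genes), with the study's steps (9.69%) and with GC and length trends removed (18.7%). Without M92KO replicate 1 the adjusted p was 0.0526 for Hspa5 and 0.0572 for Xbp1 (edgeR). In that fit 401 genes of the whole table passed the adjusted threshold and 2984 the unadjusted one, so the values depend on that library. Correlations of same-numbered deviations were 0.0806, 0.0376 and 0.0151. Each M92KO library matched the WT library of its own number best, but WT replicate 3 matched M92KO replicate 2 better (0.0365). Values this small cannot settle whether the replicate numbers pair the mice. With the replicate number as a block, 4 members had an unadjusted p under 0.05 (10.7% of all genes). In that fit the median log2 fold change of the members was 0.17 and 2 genes of the whole table passed the adjusted threshold. The study's steps, rerun here on the deposited counts, gave 2287 genes at the unadjusted threshold, more than the study itself reported. Of these, 1244 were higher and 1043 lower in M92KO muscle, against 863 and 1092 in edgeR, and 42 genes passed the adjusted threshold. Without a filter on low counts 6 genes passed it. DESeq2 and leaving out M92KO replicate 1 each brought 8 of the 33 named genes past an adjusted p of 0.05, none of them a member. Among the other named genes, the unadjusted call held in 2 of the 6 fits that left out 1 library for Creb3, in 1 for Eif2b4, Bbc3 and Eprs, in 3 for Ppp1r15b and in 4 for Mars1. Trib3, Asns and the genes near 1 to 3 CPM rest on few counts, and Fgf21 could not be assessed at this depth.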
